A study of Mus musculus with 2 samples.

Results

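The interferon regulatory factors are a family of transcription factors that share an N-terminal DNA-binding domain and read GAAA repeats in the promoters of interferons and interferon-induced genes. The genes compared here were Irf1, Irf2, Irf3, Irf4, Irf5, Irf7, Irf8 and Irf9, chosen by symbol in the platform annotation. All 8 had a single probe set, out of 19505 genes with a probe set on the array.

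The study set mouse Tc9 cells, CD8 T cells polarized toward interleukin 9 production, against Tc1 cells, the interferon gamma producing type, and sought the genes with higher expression in the Tc9 state. Spleen and lymph node CD8 T cells were activated with antibodies to CD3 and CD28. For 3 days of polarization the Tc9 group received the interferon gamma blocking antibody XMG1.2 at 20 µg/mL, TGF-beta at 1 ng/mL and IL-4 at 10 ng/mL. The Tc1 group received 10 ng/mL recombinant human IL-2 in that period. Both groups then spent 2 days in medium with 10 ng/mL of that IL-2 and were harvested on day 5. The sources used here do not give the mouse strain, genotype, age or number of animals. Each group is 1 Affymetrix array of total RNA, so no difference below has a replicate check, and no error or p-value can be given. IL-4, TGF-beta and the antibody were added together, and IL-2 in the polarization days is named for the Tc1 group only. The parts of these 4 factors in any difference cannot be told apart. The second array is named Tc9 by its title and description but Tc1 by its source name, and was taken as Tc9.

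Signals are the deposited probe set intensities on a linear scale, and differences are log2 Tc9 minus log2 Tc1. Detection was set at a signal of 86.3, the median over all genes of both arrays, and 10147 genes, all 8 Irf genes among them, were detectable because at least 1 array reached it. The identity genes followed the titles. Il9, the signature cytokine of Tc9 cells, had signals of 350.8 in Tc9 cells and 28.2 in Tc1 cells. Ifng, which encodes interferon gamma, had signals of 189.9 in Tc9 cells and 621.7 in Tc1 cells. Tbx21, which encodes the type 1 factor T-bet, had 90.7 in Tc9 cells and 753.2 in Tc1 cells. Cd8a was bright on both arrays, with 3906 in Tc9 cells and 4680 in Tc1 cells.

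Among the family, Irf7, Irf1, Irf8 and Irf9 had lower signals in Tc9 cells by at least 2-fold, whereas Irf2, Irf3, Irf4 and Irf5 lay within 1.5-fold. No member was at least 2-fold higher. Over all detectable genes, the share lower in Tc9 cells by 2-fold or more was 2.79%, the share higher was 2.62%, and 85.4% lay within 1.5-fold. The median log2 difference of the 8 genes was -0.70, against 0.05 over all detectable genes. In background terms, IRF1, IRF7, IRF8 and IRF9 are encoded by genes that interferons induce. IRF3 is present in resting cells and is switched on by phosphorylation, and IRF4 is induced by antigen receptor signals. That background leaves out Irf2 and Irf5 and does not say that interferons fail to induce them. It therefore does not sort the family into induced and other members. The part of interferons in these differences was not tested.

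**Figure D1:**
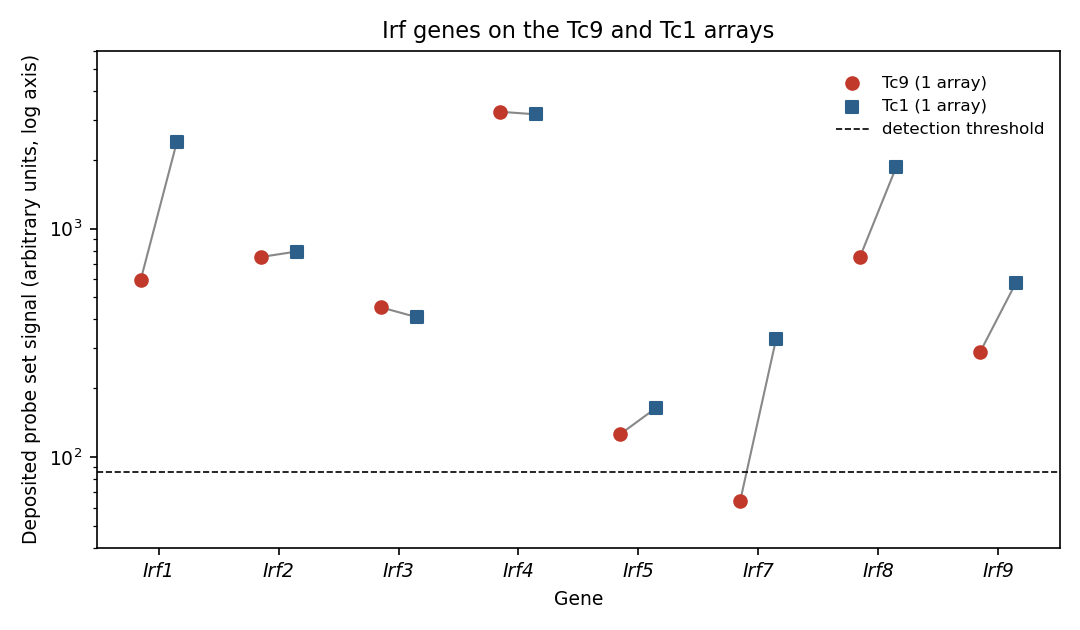
Deposited probe set signal (log axis, arbitrary units) of each Irf gene on the single Tc9 array (circles, left of each pair) and the single Tc1 array (squares); the dashed line is the detection threshold of 86.3. Irf1, Irf7, Irf8 and Irf9 slope up toward Tc1, Irf2, Irf3 and Irf4 are nearly level, and the Tc9 value of Irf7 alone lies under the threshold.

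Irf1 encodes the founding activator of the family, which interferon gamma induces and which in turn drives antigen presentation genes. Its probe set TC1100000614.mm.2 had signals of 597.6 in Tc9 cells and 2384 in Tc1 cells. The Tc9 signal was 25.1% of the Tc1 signal, a 3.99-fold lower level. Of the 10147 detectable genes, 73, or 0.719%, were as far or farther on the lower side. Control probe sets with neg in their ID give a second scale. Of 585 that reached the threshold, 73 were 2-fold lower and 22 were 2-fold higher in Tc9 cells. Such differences were thus commoner among them than the 2.79% and 2.62% of detectable genes. The neg controls also leaned lower in Tc9 cells, the direction of the lower Irf genes. Over all 5222 of them, percentile 95 of the log2 signal was 7.02 in Tc9 cells and 7.30 in Tc1 cells. Lower Tc9 signals of dim genes carry that limit. As low as Irf1 were 7 of the 585, and of the 26 within 0.5 log2 units of the mean brightness of Irf1, 0 were.

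Irf2 encodes a factor that binds the same repeats as IRF1 and is best known for opposing it. Irf2, on probe set TC0800000542.mm.2, had signals of 750.0 in Tc9 cells and 793.0 in Tc1 cells. The log2 difference was -0.08, and 34.2% of detectable genes were at least as low. The activator and its classical antagonist thus had unlike differences on this pair of arrays, -2.00 for Irf1 and -0.08 for Irf2 on the log2 scale.

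Irf3 and Irf7 encode the factors that induce type I interferon genes after virus sensing, IRF3 as a standing protein and IRF7 as an amplifier made in response to interferon. Irf7, on probe set TC0700004530.mm.2, had signals of 64.3 in Tc9 cells and 329.8 in Tc1 cells. The Tc9 value lay below the threshold, so Irf7 was at least 3.82-fold lower in Tc9 cells. The measured log2 difference was -2.36, and -1.93 with the Tc9 value raised to the threshold, so the order of Irf7 and Irf1, at -2.00, was not settled. As low as its measured value were 47 detectable genes, 1 of the 585 neg controls and 0 of the 203 neg controls of like brightness. These counts do not hold for the bound of -1.93. As low as -2.00, the Irf1 value, were 73 detectable genes and 7 of the 585 neg controls. Irf3, on probe set TC0700000825.mm.2, had signals of 452.2 in Tc9 cells and 409.3 in Tc1 cells, a log2 difference of 0.14. A total of 37.8% of detectable genes were at least as high, so Irf3 did not stand out from the array.

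Irf9 encodes the DNA-binding subunit of ISGF3, the STAT2-containing complex that type I interferon receptors activate. Irf9, on probe set TC1400002834.mm.2, had signals of 287.3 in Tc9 cells and 579.5 in Tc1 cells, 2.02-fold lower in Tc9 cells. This value sits just past the 2-fold rule, and it was -0.94 on the log2 scale after median centring of each array. Of the neg controls at the threshold, 70 of 585, 12.0%, were as low, and 5 of 48 of like brightness were. Stat2, its partner in the complex, had signals of 324.3 in Tc9 cells and 874.9 in Tc1 cells, 2.70-fold lower.

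Irf8 and Irf4 encode the pair of relatives that bind DNA mainly with partners, among them PU.1 and the BATF-JUN dimers. Irf8 is best known from macrophages, dendritic cells and B cells, and is also induced in effector CD8 T cells. Irf8, on probe set TC0800001451.mm.2, had signals of 753.8 in Tc9 cells and 1853 in Tc1 cells, 2.46-fold lower in Tc9 cells. As low were 178 detectable genes, 1.75%, and 38 of the 585 neg controls, 6.50%. Of the 26 neg controls of like brightness, 2 were as low. Irf4, a factor that T cells need for effector expansion and for Il9 expression, behaved otherwise. On probe set TC1300000338.mm.2 it had signals of 3243 in Tc9 cells and 3160 in Tc1 cells, a log2 difference of 0.04 whose sign turned to -0.04 under 75th percentile scaling. Irf4 and Irf8 therefore had differences of 0.04 and -1.30 on the same arrays.

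Irf5 encodes a factor of Toll-like receptor signalling in B cells and myeloid cells. Irf5, on probe set TC0600000236.mm.2, was dim, with signals of 125.9 in Tc9 cells and 164.2 in Tc1 cells. The log2 difference of -0.38 was reached by 13.0% of detectable genes and by 286 of the 585 neg controls, 48.9%, on the lower side, so it did not stand out from the control probe sets.

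**Figure D2:**
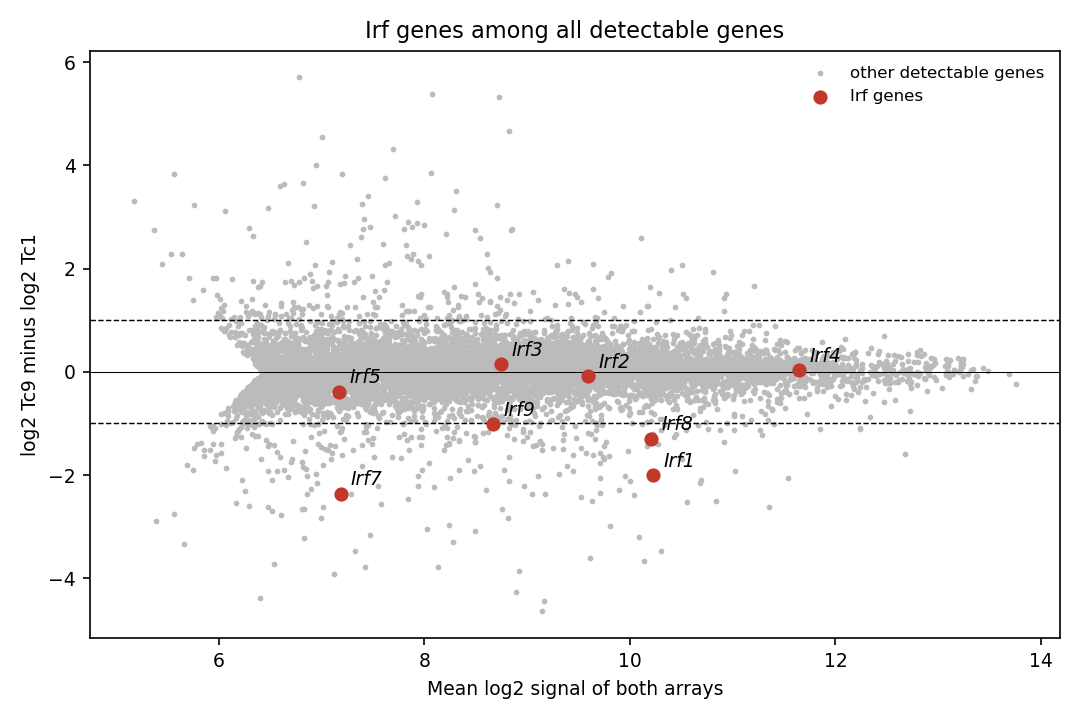
Difference (log2 Tc9 minus log2 Tc1) against mean log2 signal for each of 10147 detectable genes (grey) and the 8 Irf genes (red), with dashed lines at 2-fold. Irf1, Irf7 and Irf8 lie below the main cloud at -2.00, -2.36 and -1.30, Irf9 lies on the lower line at -1.01, and Irf2, Irf3, Irf4 and Irf5 lie inside the cloud.

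B cells and myeloid cells express Irf8 and Irf5, so their markers were read on the same arrays. In bulk RNA, fewer cells of a type and less RNA per cell cannot be told apart. Of 11 B cell markers, 10 had a probe set and each of these was detectable. The summed signal of these markers was 3510 in Tc9 cells and 4878 in Tc1 cells, with 9 of 10 lower in Tc9 cells. None was at 0, and Cd79a, which encodes a signalling subunit of the B cell receptor, had signals of 821.3 in Tc9 cells and 1608 in Tc1 cells. Cd79b, the other subunit, had 725.2 in Tc9 cells and 971.8 in Tc1 cells, and Ebf1, a B lineage factor, had 717.6 in Tc9 cells and 721.2 in Tc1 cells. The median log2 difference of the list was -0.38, with single markers between -1.28 and 0.55, beside -1.30 for Irf8 and -0.38 for Irf5. The part of B cells in the Irf8 and Irf5 differences was not tested.

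Myeloid markers were mostly dim. Of 9 measured monocyte and macrophage markers, 5 failed the threshold on both arrays, and the summed signal of all 9 was 1085 in Tc9 cells and 1062 in Tc1 cells. Lyz2, a lysozyme gene, had 443.5 in Tc9 cells and 329.3 in Tc1 cells. Fcgr3, an Fc receptor gene, had 186.5 in Tc9 cells and 341.2 in Tc1 cells, and Itgam, an integrin chain gene, had 99.9 in Tc9 cells and 113.6 in Tc1 cells. Of 7 measured markers of conventional dendritic cells, 4 failed it on both arrays, Flt3, Xcr1 and Clec9a among them, and the summed signal was 1948 in Tc9 cells and 2521 in Tc1 cells. Most of that sum was H2-Aa, a class II gene that B cells also express, with 1643 in Tc9 cells and 2199 in Tc1 cells. Clec10a, a lectin gene, had 115.9 in Tc9 cells and 124.1 in Tc1 cells, and Zbtb46, a dendritic cell factor, had 48.0 in Tc9 cells and 114.9 in Tc1 cells. The 5 markers of plasmacytoid dendritic cells, which carry much Irf7 and Irf8, summed to 1944 in Tc9 cells and 3691 in Tc1 cells. Most of this was Bst2, itself an interferon-induced gene, with 814.1 in Tc9 cells and 2614 in Tc1 cells, and Tcf4, with 1006 in Tc9 cells and 892.4 in Tc1 cells. Siglech, the defining surface lectin, was below the threshold on both arrays, at 23.6 in Tc9 cells and 25.2 in Tc1 cells. The 4 NK cell and 4 measured neutrophil markers were below it on both arrays as well. CD8 T cell markers were bright, with a summed signal of 23097 in Tc9 cells and 26025 in Tc1 cells over 8 genes. Cd3e, a chain of the T cell receptor complex, had 7153 in Tc9 cells and 7762 in Tc1 cells. Of 4 plasma cell markers, whose cells carry much Irf4, 3 failed the threshold on both arrays, and Sdc1, which encodes syndecan-1, had 294.6 in Tc9 cells and 522.8 in Tc1 cells. The helper T cell marker Cd4 had 427.5 in Tc9 cells and 645.2 in Tc1 cells, and Zbtb7b, the helper lineage factor ThPOK, had 333.1 in Tc9 cells and 260.8 in Tc1 cells. The part of these other cells in the Irf differences was not tested.

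The promoters of the 8 genes were read from RefSeq (GRCm38.p6), as the 250 bases before each annotated start. All 8 genes matched, with 11 windows. The motifs searched on both strands were the interferon-stimulated response element core GAAANNGAAA, which IRF proteins and ISGF3 bind, the STAT palindrome TTCNNNGAA, called GAS, and the wider palindrome TTCNNNNGAA that STAT6 prefers. Also searched were the AP-1 site TGANTCA, the ETS-IRF composite GGAANNGAAA and the loose NF-kB form GGGNNNNNCC. Irf1 and Irf8, both lower in Tc9 cells, held GAS matches, as did Irf2, which hardly differed. The windows of these 3 genes that hold the matches are printed 5′ to 3′ with GAS and response element core matches in capitals, beside that of Irf7, which held neither.
Irf1 promoter (chr11:53769764-53770013, plus strand): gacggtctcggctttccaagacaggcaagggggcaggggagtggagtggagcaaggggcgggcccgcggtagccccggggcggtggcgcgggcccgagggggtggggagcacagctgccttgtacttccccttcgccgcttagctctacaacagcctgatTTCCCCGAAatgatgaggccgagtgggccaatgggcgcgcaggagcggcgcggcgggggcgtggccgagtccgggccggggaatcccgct
Irf8 promoter (chr8:120736108-120736357, plus strand): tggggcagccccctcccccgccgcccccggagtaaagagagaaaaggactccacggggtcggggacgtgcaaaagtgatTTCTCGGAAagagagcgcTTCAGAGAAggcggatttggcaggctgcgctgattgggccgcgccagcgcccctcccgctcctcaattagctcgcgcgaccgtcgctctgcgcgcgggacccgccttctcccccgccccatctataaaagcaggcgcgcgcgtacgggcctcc
Irf2 promoter (chr8:46739495-46739744, plus strand): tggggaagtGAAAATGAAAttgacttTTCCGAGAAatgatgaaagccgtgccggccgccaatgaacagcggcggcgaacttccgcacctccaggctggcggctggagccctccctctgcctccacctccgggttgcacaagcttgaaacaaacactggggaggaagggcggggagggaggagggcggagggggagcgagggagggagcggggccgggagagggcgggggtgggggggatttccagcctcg
Irf7 promoter (chr7:141266425-141266674, minus strand): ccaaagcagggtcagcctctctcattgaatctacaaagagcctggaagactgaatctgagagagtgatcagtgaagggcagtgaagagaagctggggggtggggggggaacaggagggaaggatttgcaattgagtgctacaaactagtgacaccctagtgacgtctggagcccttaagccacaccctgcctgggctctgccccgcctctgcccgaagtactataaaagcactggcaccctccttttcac
The Irf1 match, TTCCCCGAA, begins 90 bases before the start. Irf8 holds TTCTCGGAA at 171 bases and TTCAGAGAA at 153 bases before the start. Irf2 holds the response element core GAAAATGAAA at 241 bases and the GAS match TTCCGAGAA at 224 bases, and its composite match GGAAGTGAAA overlaps the core. GAS occurred in 7.02% of 32851 promoter windows of the same length and the response element core in 2.98%. Counted by gene, over 8311 detectable genes with a window, the shares were 7.29% for GAS and 3.27% for the core. The STAT6 spacing occurred in 5.85% of windows, AP-1 in 6.75% and the composite in 2.30%. No member held the STAT6 spacing or the AP-1 site. The NF-kB form was in all 8 genes, in 45.8% of windows and in 66.6% of detectable genes with a window, so it sets no member apart. For Irf3, Irf4, Irf5, Irf7 and Irf9, the absence of GAS and core matches says only that these letters are not in these windows. A match is a run of letters, not a measured binding site.

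Known targets of the lower members were read next, from lists chosen with earlier results of these data known. The interferon gamma and IRF1 target list holds antigen processing genes, guanylate-binding proteins, immunity-related GTPases and chemokines. Of its 25 measured genes, 14 had a Tc9 signal lower by 2-fold or more and 0 had one as much higher. Over all 19505 measured genes, 2.08% were as low and 1.80% as high. The median log2 difference was -1.26 over the 25 genes, against 0.0045 over all measured genes, and -0.99 once dim values were raised to the threshold. Gbp2, a guanylate-binding protein, had signals of 316.3 in Tc9 cells and 4019 in Tc1 cells, and Iigp1, an immunity-related GTPase, had 99.0 in Tc9 cells and 978.0 in Tc1 cells. Cxcl9, a chemokine that recruits CXCR3-bearing T cells, had 25.6 in Tc9 cells and 336.9 in Tc1 cells, at least 3.91-fold lower in Tc9 cells. Nos2, the inducible nitric oxide synthase, had 15.97 in Tc9 cells and 161.7 in Tc1 cells, a fold of 1.87 or more. Guanylate-binding proteins and immunity-related GTPases have near-identical relatives, and their probe sets may not separate them.

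The ISGF3 target list holds antiviral genes that type I interferon induces through the complex that contains IRF9. Of 31 measured genes, 22 had a Tc9 signal lower by 2-fold or more and 0 had one as much higher, against 2.08% and 1.80% of all measured genes. Raising dim values to the threshold left 16 of the 22 past 2-fold. The median log2 difference was -1.50 over the 31 genes, and -1.01 with dim values at the threshold. Xaf1, an apoptosis regulator, had signals of 35.9 in Tc9 cells and 541.2 in Tc1 cells, at least 6.27-fold lower in Tc9 cells. Oas3, an oligoadenylate synthetase, had 47.9 in Tc9 cells and 341.9 in Tc1 cells, at least 3.96-fold lower. Its relative Oasl2 had 37.4 in Tc9 cells and 254.2 in Tc1 cells, at least 2.95-fold lower. Ifit1, which binds viral RNA, had 15.4 in Tc9 cells and 114.7 in Tc1 cells, 1.33-fold lower with the Tc9 value at the threshold. The Tc1 value of Ifit1, 6.84 on the log2 scale, lay under 7.30, percentile 95 of the neg controls on that array.

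IRF4 targets in T cells did not move as a group. Of 15 measured genes, 5 had 2-fold or more the Tc1 signal in Tc9 cells and 3 were lower by that much. Over all measured genes, the shares were 1.80% higher and 2.08% lower. The median log2 difference of the 15 was 0.15. Maf, a factor of IL-4 and IL-10 producing T cells, had 411.3 in Tc9 cells and 67.7 in Tc1 cells, at least 4.77-fold higher in Tc9 cells. The immune-restraining cytokine gene Il10 had 166.4 in Tc9 cells and 17.7 in Tc1 cells, so its fold was 1.93 or more. Il9, Batf and Il4 were the other genes 2-fold higher, Il4 with both arrays below the threshold. Prdm1, which encodes Blimp-1, had 36.4 in Tc9 cells and 154.4 in Tc1 cells, 1.79-fold lower with the Tc9 value at the threshold. Its Tc1 value, 7.27 on the log2 scale, lay under 7.30, percentile 95 of the neg controls on that array. Gzmb, the granzyme B gene, had 3779 in Tc9 cells and 11384 in Tc1 cells, and Il17a, the last of the lower genes, was below the threshold on both arrays. Gzmb, Il4 and Il17a were named after their values were seen. These genes diverged on arrays where the Irf4 signal was nearly level.

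**Figure D3:**
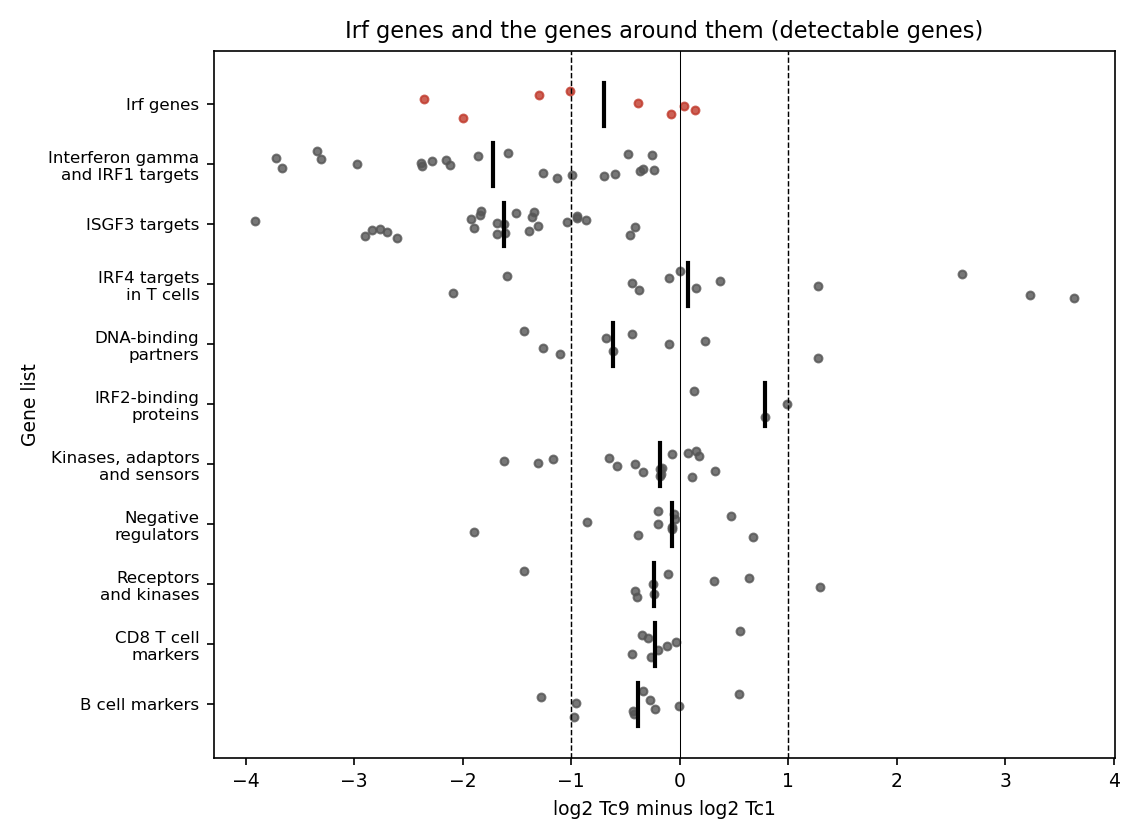
Each point is 1 detectable gene, placed by its log2 Tc9 minus log2 Tc1, in 11 gene lists, with the median of the detectable genes as a black bar and dashed lines at 2-fold; genes dim on one array are at their measured values. The Irf genes (red) spread from -2.36 to 0.14, the plotted genes of both interferon target lists lie below 0, and IRF4 targets spread to either side. Genes below the threshold in Tc9 are plotted only because Tc1 reached it, so they must lie below 0. These include 13 ISGF3 targets and 3 interferon gamma and IRF1 targets at least 2-fold lower. Genes below it in Tc1 must likewise lie above 0. Cxcl11, a target at 0.01, was below the threshold on both arrays and is not plotted.

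The DNA-binding partners of IRF proteins differed in both directions. Batf, which with JUN proteins forms the complex that recruits IRF4, had signals of 1785 in Tc9 cells and 736.0 in Tc1 cells, 2.43-fold higher in Tc9 cells. Its relative Batf3 had 482.9 in Tc9 cells and 739.2 in Tc1 cells, 1.53-fold lower. Batf2, an interferon-induced relative, had 50.0 in Tc9 cells and 107.3 in Tc1 cells, 1.24-fold lower with the Tc9 value at the threshold. The Tc1 value of Batf2 lay under percentile 95 of the neg controls on that array. The 3 Batf genes thus did not share a direction. Jun, an AP-1 subunit, had 332.1 in Tc9 cells and 792.9 in Tc1 cells, 2.39-fold lower in Tc9 cells. Junb had 1452 in Tc9 cells and 1550 in Tc1 cells, and Jund had 3496 in Tc9 cells and 2980 in Tc1 cells, both close to level. Spi1, which encodes the ETS factor PU.1, had 764.6 in Tc9 cells and 1225 in Tc1 cells, 1.60-fold lower. Spib, a B cell relative of it, had 97.2 in Tc9 cells and 131.7 in Tc1 cells.

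The IRF2-binding proteins, a group named for corepressors that bind IRF2, had higher signals in Tc9 cells than in Tc1 cells in 3 of 3 genes, by less than 2-fold. Irf2bp2 had signals of 737.7 in Tc9 cells and 371.8 in Tc1 cells, 1.98-fold higher in Tc9 cells, and it passed 2-fold after median centring. Irf2bp1 had 305.5 in Tc9 cells and 177.4 in Tc1 cells, 1.72-fold higher. Irf2bpl had 347.2 in Tc9 cells and 316.7 in Tc1 cells, 1.10-fold higher. Its log2 difference of 0.13 was below that of Irf3, at 0.14, and did not stand out from the array. The median over all detectable genes was itself 0.05.

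Most of the machinery that turns IRF proteins on differed by less than 2-fold, apart from some of its RNA sensors. Of 18 measured kinases, adaptors and sensors, 3 were lower in Tc9 cells by 2-fold or more and 0 were as much higher. Over all measured genes, the shares were 2.08% lower and 1.80% higher. The median log2 difference of the 18 was -0.17. Dhx58, the RIG-I relative LGP2, had 84.0 in Tc9 cells and 257.6 in Tc1 cells, at least 2.99-fold lower. Ddx58, which encodes the RNA sensor RIG-I itself, had 140.9 in Tc9 cells and 187.7 in Tc1 cells, only 1.33-fold lower. Ddx58 was named after its values were seen. Ifih1, the RNA sensor MDA5, had 297.3 in Tc9 cells and 735.1 in Tc1 cells, 2.47-fold lower. Tlr7, an endosomal RNA receptor of B cells and myeloid cells, had 347.3 in Tc9 cells and 782.0 in Tc1 cells, 2.25-fold lower. Tlr9, an endosomal DNA receptor of the same cells, had 101.4 in Tc9 cells and 158.8 in Tc1 cells.

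Interferon receptors and kinases showed no common direction. Ifngr2, the signalling chain of the interferon gamma receptor, had signals of 967.1 in Tc9 cells and 395.5 in Tc1 cells, 2.45-fold higher in Tc9 cells. Ifngr1, its ligand-binding partner, had 1163 in Tc9 cells and 1550 in Tc1 cells, 1.33-fold lower. Jak2, a kinase of that receptor, had 1945 in Tc9 cells and 1247 in Tc1 cells, 1.56-fold higher. The interferon gamma receptor chain Ifngr2 was therefore higher on the array where Ifng and Irf1 were lower. Among 15 measured interferon genes, 11 failed the threshold on both arrays, Ifnb1 among them. Ifng was 3.27-fold lower in Tc9 cells. Ifna5 had 96.8 in Tc9 cells and 160.8 in Tc1 cells, Ifnl2 had 82.1 in Tc9 cells and 117.2 in Tc1 cells, and Ifnl3 had 89.4 in Tc9 cells and 127.6 in Tc1 cells, all close to the threshold.

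Negative regulators of interferon and IRF signalling mostly differed by less than 2-fold. Against 2.08% of all measured genes, 1 of 11 was at least 2-fold lower in Tc9 cells. This was Usp18, an ISG15 protease that restrains the type I receptor and is itself interferon-induced, with 227.9 in Tc9 cells and 845.9 in Tc1 cells, 3.71-fold lower. Trim21, a ubiquitin ligase that acts on IRF proteins, had 139.6 in Tc9 cells and 251.8 in Tc1 cells, 1.80-fold lower. Socs1, which blocks JAK kinases and which interferon gamma and IL-4 both induce, had 1986 in Tc9 cells and 1242 in Tc1 cells, 1.60-fold higher. Ptpn2, a phosphatase of STAT proteins, had 1398 in Tc9 cells and 1010 in Tc1 cells, 1.38-fold higher.

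The response element core was then counted in the promoters of all measured genes with a RefSeq window. Of 544 genes with the core, 56 had a Tc9 signal lower by 2-fold or more, 10.3%, against 240 of 15147 genes without it, 1.58%. Higher by 2-fold were 1.47% of genes with the core and 1.84% of genes without it. Raising dim values to the threshold left 36 of the 544 lower, 6.62%, against 0.891% without the core. With every gene of the lists left out, 39 of 509 genes with the core were lower, 7.66%, against 1.44% without it. The median log2 difference of the 544 genes was 0.00050, close to 0.00742 for genes without it. GAS stood at 2.22% lower with the motif and 1.86% without it, and at 1.51% with it and 1.66% without it once the list genes were left out. The composite stood at 3.51% lower with it and 1.84% without it, and outside the lists at 2.84% with it and 1.62% without it. AP-1 stood at 2.94% lower with it and 1.80% without it, and outside the lists at 2.02% with it and 1.62% without it. The NF-kB form stood at 1.99% lower with it and 1.75% without it. For the STAT6 spacing, 1.72% of genes with it were lower and 2.84% higher, against 1.90% lower and 1.75% higher without it. Outside the lists the higher shares were 2.47% with the STAT6 spacing and 1.74% without it. These shares describe 1 pair of arrays, and neighbouring genes of a family can share promoter sequence.

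**Figure D4:**
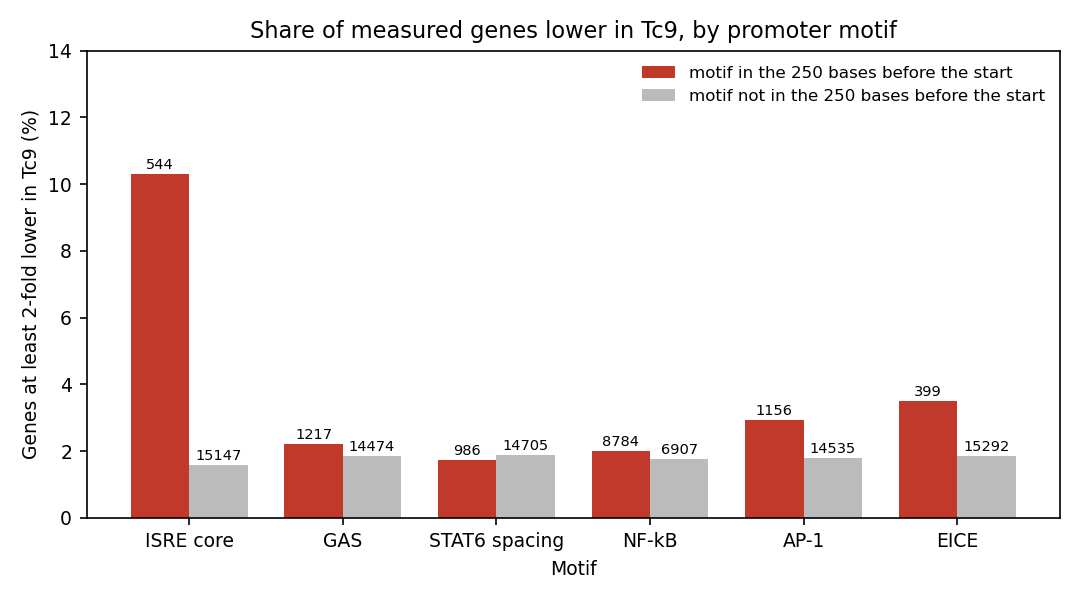
Share of all measured genes at least 2-fold lower in Tc9 (percent, measured values) among genes with a motif in the 250 bases before the start (red) and without it (grey), with the number of genes above each bar. The response element core has the tallest bar, 10.3% of 544 genes against 1.58% of 15147.

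With 1 array a group, likeness to a member is only likeness of 1 difference. For Irf7, the lowest member by measured value, the Tc9 signal below the threshold leaves only a bound, so no neighbours are given. Among 9358 genes at or above the threshold on both arrays, those nearest to Irf3, the highest member, in log2 difference were Pds5b, Cog3 and Smim20, all at 0.14, but 2343 genes lay within 0.1 of Irf3, so that neighbourhood singles out nothing.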

How the data were processed

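Cultured CD8 T cells, Tc9 and Tc1, were measured on 1 array each. The deposited values are probe set intensities on a linear scale, per the file headers 1 column per sample. RNA was extracted with Trizol and biotin-labelled by a whole-transcript method, per the labels' protocols. Summarization, background correction and normalization were not stated in the labels or file. Median signals were 53.1 (Tc9) and 57.2 (Tc1) and upper quartiles 346.2 (Tc9) and 330.5 (Tc1), so log2 of the deposited intensities was used without further scaling. The number of arrays limits the precision.

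Of 28846 probe sets, 19572 had 1 gene symbol, 0 several and 9274 none. For 55 genes with several probe sets the brightest was used. Genes, lists, motifs and the naming rule were chosen with earlier results of these data known. Named were all members, partners and IRF2-binding proteins, up to 4 detectable genes of largest difference per other list, the brightest markers, and identity genes. The few others are marked as such. Where one array was below the threshold of 86.3, any fold stated is given as at least, computed at the threshold. For Prdm1, Batf2 and Ifit1, whose Tc1 values lay under percentile 95 of the neg controls, that fold is not given as a bound. Promoters came from RefSeq, GRCm38.p6. Protein identity was not computed, and some genes of the lists are not reported here. Python 3.11.15, numpy 2.4.6 and pandas 2.3.3 were used.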

Additional observations from a re-analysis of the deposited data

How the results depend on the processing

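The 8 Irf differences were recomputed under 8 alternatives: quantile normalization, median centring, 75th percentile scaling, a pseudocount of 16, dim values at the threshold, a threshold at percentile 95 of the neg controls, no filter on low values, and means over probe sets. Of the 64 values, 63 moved by less than 0.33 log2 units, the robust spread of all detectable differences. The exception was Irf7 at -1.93 with dim values at the threshold. The count of members at least 2-fold lower was 4, and 3 under median centring and under the pseudocount, where Irf9 came to -0.94 and -0.97. Irf4 alone changed sign, to -0.04 under 75th percentile scaling. With 1.5-fold in place of 2-fold, 791 genes were higher and 688 lower in Tc9 cells, against 266 and 283 at 2-fold, and 4 members were lower. The cause is the wider rule itself. Of 384 list values, 365 stayed within 1.5 times or within that spread, while 2 list medians changed sign. These were the IRF4 targets, 0.08 over detectable genes and -4.6e-05 under 75th percentile scaling, and the monocyte and macrophage markers, 0.12 over detectable genes and -0.22 with the threshold at percentile 95 of the neg controls. No paired analysis was possible because there is 1 array per group. Dim probe sets limit Irf5 and Irf7: on the Tc9 array 91.7% and on the Tc1 array 89.9% of neg controls lay below the threshold.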

Other observations

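The 29 detectable genes lower in Tc9 cells that hold the response element core and belong to none of the lists are not described so far. Those named here were picked after their values were seen. Of the 29, 9 had a Tc9 value below the threshold, and 4 of these fell under 2-fold with it raised to the threshold. The lowest was Serpinb9, with 123.3 in Tc9 cells and 2668 in Tc1 cells, 21.6-fold lower. Ifi211, Ifi213, Ifi208, Ifi207, Mndal, Phf11a, Phf11b, Slfn8 and Slfn5 were also among the 29. Cybb and Ncf1, which encode subunits of the phagocyte NADPH oxidase and are known targets of PU.1 and IRF factors in myeloid cells, were both lower. Cybb had signals of 184.0 in Tc9 cells and 699.1 in Tc1 cells, and Ncf1 had 1202 in Tc9 cells and 3087 in Tc1 cells. Stat4, the factor that carries IL-12 signals toward interferon gamma, had 852.5 in Tc9 cells and 1869 in Tc1 cells, 2.19-fold lower. Trim30a, a ubiquitin ligase gene, had 319.1 in Tc9 cells and 1710 in Tc1 cells, and Tgtp2, an immunity-related GTPase gene, had 804.9 in Tc9 cells and 3420 in Tc1 cells. Plxnc1, a semaphorin receptor gene, had 333.1 in Tc9 cells and 1890 in Tc1 cells, 5.67-fold lower.

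Most detectable genes with the core were within 2-fold. Outside the lists, 5 were at least 2-fold higher by measured signal, each with its Tc1 value below the threshold, and 3 of the 5 stayed past 2-fold with it raised to the threshold. Sgk1, a serum- and glucocorticoid-induced kinase gene, had 598.1 in Tc9 cells and 74.2 in Tc1 cells, at least 6.93-fold higher. Tnfsf13b, which encodes the B cell survival factor BAFF, had 251.9 in Tc9 cells and 59.9 in Tc1 cells, at least 2.92-fold higher. The apolipoprotein L genes Apol9a and Apol7c and the retinal reductase gene Dhrs3 were the others. None of these differences has a replicate.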
